A study of Sus scrofa with 22 samples.

Results

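The mevalonate pathway builds isoprenoids from acetyl-CoA. Its early enzymes join acetyl-CoA units into mevalonate, its middle enzymes phosphorylate and decarboxylate mevalonate into 5-carbon isoprene units, and its prenyltransferases link those units into farnesyl and geranylgeranyl diphosphate. Farnesyl diphosphate feeds sterol synthesis, while both products are attached to small GTPases and other proteins. In the small intestine the pathway runs beside the uptake of dietary cholesterol, and its genes are classic targets of the transcription factor SREBP2, which is active when cell sterol is low. The enzymes described here are ACAT2, HMGCS1, MVK, PMVK, MVD, IDI1, FDPS and GGPS1, which were chosen by gene symbol. All 8 were found among the 24358 genes of each count file, 7 under the symbol itself and 1, IDI1, under its gene identifier ENSSSCG00000029066 through a table of gene names. All 8 passed the filter on low counts and were among the 13626 genes tested.

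RNA was taken from the mucosa of the jejunum, where most nutrients are absorbed, in 22 Ossabaw pigs (a breed prone to obesity) after 6 months on their diets, with 1 library per pig. WD_S was a Western pattern with atorvastatin (7 pigs), HHD_S a heart healthy pattern with atorvastatin (8 pigs) and HHD the heart healthy pattern alone (7 pigs). The Western pattern was rich in butter fat, cholesterol, sugar and white flour and low in fibre, and the heart healthy pattern held canola, soybean and corn oils, oats and whole wheat, a dried fruit and vegetable mix and more fibre, with little cholesterol. Both supplied 38% of energy as fat, and pigs on the heart healthy pattern took fish oil (1000 mg per capsule) as well. The statin atorvastatin blocks the mevalonate pathway at an early step, and was given at 20 mg per day for 3 months and then at 40 mg per day. Both drug groups carry it, so WD_S against HHD_S contrasts diets under the drug, HHD_S against HHD contrasts drug and no drug under 1 diet, and WD_S against HHD changes both at once. The sample labels call the Western group a statin group, whereas the series text ties its abbreviation to the Western pattern without drug, and the sample labels were followed here. The sex of each pig is not in the labels used here, and a Western pattern without drug was not analysed here.

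Libraries held 15.3 to 31.6 M unique exon reads. Levels are CPM, read counts scaled to a fixed library size, after TMM scaling, which adjusts for library composition. Because these values are not divided by transcript length, levels were not compared between enzymes. In whole mucosa, fewer cells of a type and less RNA per cell cannot be told apart. The enterocyte markers (11 of 13 matched) summed to 25800 to 86600 CPM, so the absorptive epithelium was present in every library, with the lowest sums in HHD_S 3 (25800), HHD 7 (36400) and HHD_S 8 (39100). The ileal markers FABP6 and SLC10A2 summed to at most 8.31 CPM except in WD_S 1, where they summed to 34.1 CPM. Y-linked genes summed to 0.0 CPM at the lowest in every group, and at the highest to 93.9 (WD_S), 106 (HHD_S) and 95.3 CPM (HHD). Every group thus held libraries with and without clear Y-linked expression. The libraries came in pools 3 and 4, named in the deposited file names, with 3 of 7 WD_S, 5 of 8 HHD_S and 5 of 7 HHD libraries in pool 3.

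ACAT2, HMGCS1 and IDI1 had lower group means on the Western pattern than in either heart healthy group, by fitted folds between 0.65 and 0.751. The other 5 had fitted folds between 0.864 and 1.05 in the same comparisons. None of these differences passed an adjusted p of 0.05 in edgeR's quasi-likelihood test over all 13626 genes. For atorvastatin under the heart healthy pattern, the fitted folds of all 8 lay between 0.887 and 1.21, again with no enzyme past the threshold.

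**Figure D1:**
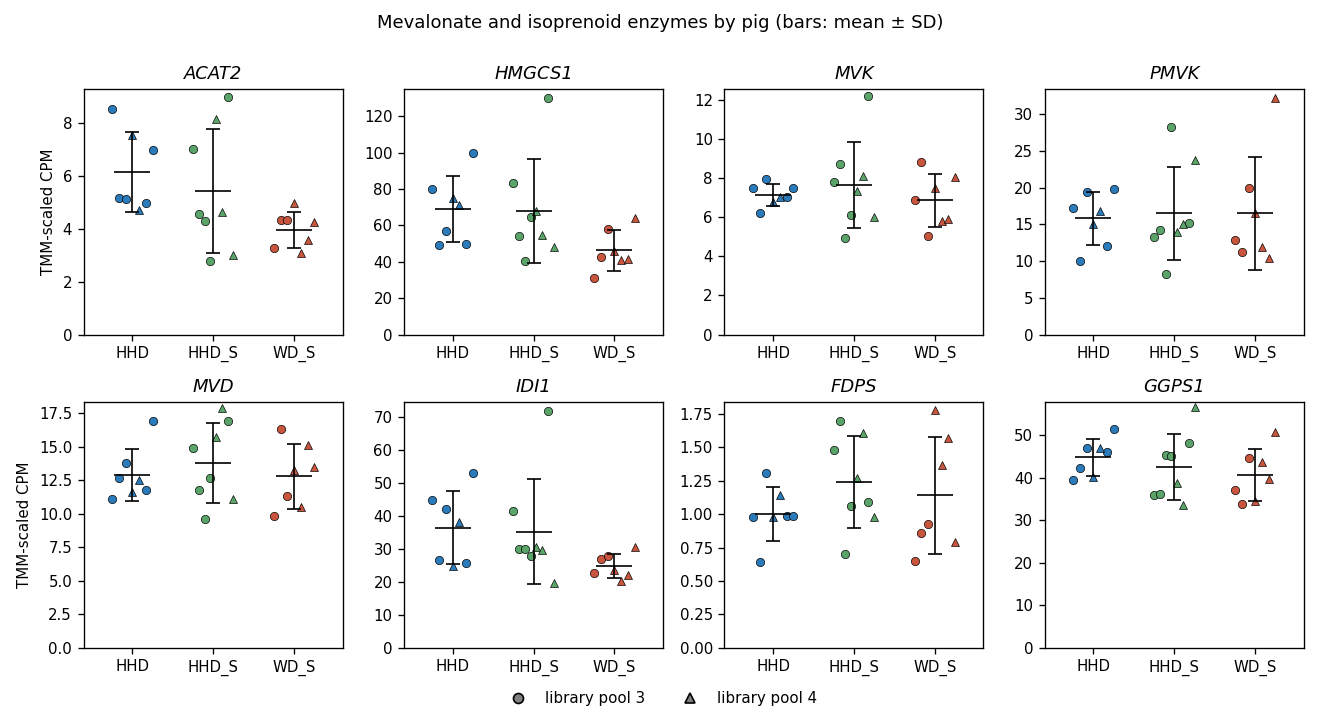
TMM-scaled CPM (y axis, linear, from 0) of each enzyme in each of 22 pigs by diet group, with circles for library pool 3, triangles for pool 4, and bars for the mean ± SD of 7 (HHD), 8 (HHD_S) and 7 (WD_S) pigs. The Western libraries lie low and close together for ACAT2 (3.08 to 4.96 CPM) and IDI1 (20.1 to 30.4 CPM), and every enzyme overlaps between groups.

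The first 2 enzymes make HMG-CoA. ACAT2 is the cytosolic thiolase that joins 2 acetyl-CoA molecules. It shares its symbol with an older name of the cholesterol-esterifying enzyme SOAT2, but the row used here, ENSSSCG00000004049, is the thiolase gene at chromosome 1, 7600616 to 7612861 (RefSeq gene span, Sscrofa11.1). ACAT2 in WD_S ran from 3.08 to 4.96 CPM with a median of 4.24 (mean 3.97 ± 0.681, SD, n = 7). In HHD_S it ran from 2.79 to 8.97 CPM with a median of 4.61 (mean 5.43 ± 2.33, SD, n = 8). In HHD it ran from 4.71 to 8.54 CPM with a median of 5.15 (mean 6.15 ± 1.52, SD, n = 7). Thus 6 of 7 Western pigs lay below every HHD pig, whereas WD_S lay wholly within the range of HHD_S. Against HHD the fitted log2 fold change of ACAT2 was -0.62 (SE 0.244, edgeR p = 0.0185 unadjusted and 0.9997 adjusted over all genes), and the two-sided exact permutation test on log2 CPM gave p = 0.00117 without adjustment. Against HHD_S it was -0.45 (SE 0.235), with an edgeR unadjusted p of 0.0696 and an exact permutation p of 0.194, and without HHD_S 5 it was -0.29. Its reads were few, between 55 and 209 per library. Its RefSeq span overlaps that of TCP1, a chaperonin subunit, by 94 bases, and with no strand setting stated, reads in the overlap cannot be told apart. The relation of TCP1 to ACAT2 from pig to pig did not pass the test (Pearson r = 0.13, permutation p = 0.668, adjusted p = 0.668 over 6 gene and neighbour pairs; Spearman rho = -0.08, permutation p = 0.737, adjusted p = 0.737; r = -0.17 without 2 libraries). TCP1 itself had a log2 fold change of -0.29 for WD_S against HHD (edgeR unadjusted p = 0.0485), the same sign as ACAT2, and of 0.02 for WD_S against HHD_S (edgeR unadjusted p = 0.897). The part of overlapping reads in the ACAT2 difference was not tested.

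HMGCS1, the cytosolic synthase that adds a further acetyl unit to form HMG-CoA, lies at chromosome 16, 27936225 to 27957261. In WD_S it ran from 31.1 to 64.0 CPM with a median of 42.8. In HHD_S it ran from 40.3 to 130.0 CPM with a median of 59.8, and in HHD from 49.4 to 99.6 CPM with a median of 71.1. All 7 Western pigs were under the HHD median and 5 of them under every HHD pig, while 6 of 7 were under the HHD_S median. The highest library of all was HHD_S 7, at 130.0 CPM, and the lowest was WD_S 1, the library with the ileal markers, at 31.1 CPM. The 95% interval of the log2 fold change was -0.999 to -0.072 against HHD_S (exact permutation p = 0.0479, unadjusted, 7 and 8 pigs). It was -0.54 in all libraries, -0.43 without WD_S 1 and -0.36 without HHD_S 7. Within library pool 3 alone the value was -0.75, and within pool 4 alone it was -0.25, both negative. Against HHD the exact permutation p of HMGCS1 was 0.0146 (7 and 7 pigs, unadjusted), with log2 fold changes of -0.61 in pool 3 and -0.60 in pool 4.

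MVK, PMVK and MVD turn mevalonate into isopentenyl diphosphate, through 2 phosphorylations and a decarboxylation. MVK (chromosome 14, 41320790 to 41357437) ran from 5.06 to 8.85 CPM in WD_S (median 6.87), from 4.94 to 12.2 in HHD_S (median 7.57) and from 6.21 to 7.94 in HHD (median 7.06). Its means were 6.87 ± 1.36 (SD, n = 7), 7.66 ± 2.21 (SD, n = 8) and 7.15 ± 0.562 CPM (SD, n = 7). The 3 groups lay on top of each other, and the tight HHD group (coefficient of variation 7.86%) sat inside the range of both drug groups (19.8% in WD_S and 28.8% in HHD_S), a difference of spread that was not tested. The log2 fold change of MVK was -0.14 for WD_S against HHD_S (95% interval -0.47 to 0.20).

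MVD (chromosome 6, 1008100 to 1014303), which decarboxylates the diphosphate, ran from 9.87 to 16.3 CPM in WD_S, 9.63 to 17.9 in HHD_S and 11.1 to 16.9 in HHD, with medians of 13.3, 13.8 and 12.5. Its log2 fold change for WD_S against HHD_S was -0.12 (95% interval -0.42 to 0.18). These ranges were nearly the same in all groups. PMVK, the phosphomevalonate kinase (chromosome 4, 94861500 to 94913743), ran from 10.4 to 32.2 CPM in WD_S, 8.23 to 28.2 in HHD_S and 10 to 19.8 in HHD, with medians of 12.9, 14.7 and 16.8. PMVK had the highest fitted biological coefficient of variation of the 8, at 33.6%, above that of 85.3% of genes tested. In CPM over all 22 pigs its coefficient of variation was 36.1%, beside 38.1% for IDI1 and 36.8% for HMGCS1. The interval of PMVK for WD_S against HHD_S was -0.57 to 0.48 on the log2 scale.

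IDI1 interconverts the 2 isoprene units, isopentenyl and dimethylallyl diphosphate. In WD_S it ran from 20.1 to 30.4 CPM with a median of 23.4 (mean 24.7 ± 3.72, SD, n = 7). In HHD_S it ran from 19.5 to 71.7 CPM with a median of 30.0 (mean 35.1 ± 15.9, SD, n = 8), and in HHD from 24.8 to 52.9 CPM with a median of 38.2 (mean 36.4 ± 11, SD, n = 7). All 7 Western pigs were under the HHD median and 6 of 7 under the HHD_S median. The log2 fold change of IDI1 was -0.41 against HHD_S (SE 0.210, edgeR unadjusted p = 0.0612, exact permutation p = 0.0657). Leaving out HHD_S 7 took it to -0.23, and it was -0.63 within pool 3 and -0.15 within pool 4. Against HHD it was -0.45 (SE 0.218, edgeR unadjusted p = 0.0483, exact permutation p = 0.0216), with -0.57 in pool 3 and -0.39 in pool 4.

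FDPS and GGPS1 are the prenyltransferases that make farnesyl and geranylgeranyl diphosphate. FDPS (chromosome 4, 94500140 to 94514820) had only 12 to 37 unique exon reads per library, or 0.644 to 1.78 CPM, so counting error weighs heavily on it. Reads that match several places are absent from unique counts, and whether that lowers FDPS was not tested. Its log2 fold changes were -0.21 for WD_S against HHD_S (95% interval -0.68 to 0.26) and 0.28 for HHD_S against HHD (-0.18 to 0.74). GGPS1 (chromosome 14, 55907885 to 55924037) was the steadiest enzyme. It ran from 33.9 to 50.7 CPM in WD_S, 33.5 to 56.6 in HHD_S and 39.6 to 51.4 in HHD, and its fitted biological coefficient of variation was 16.5% against a median of 20.7% over all genes tested. Its intervals were the narrowest of the 8, at -0.31 to 0.16 for WD_S against HHD_S and -0.40 to 0.10 for WD_S against HHD.

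Counted together, 8 of 8 enzymes had negative log2 fold changes for WD_S against HHD_S, with a median of -0.18, where 52.9% of all genes tested were negative and the median over all genes was -0.01. Here and in the counts below, the 8 signs are not separate observations. All come from the same pigs, and several of the enzymes varied together from pig to pig. By edgeR 0 of 8 passed an adjusted p of 0.05, as did 0% of all genes, and 1 of 8, HMGCS1, had an unadjusted p under 0.05 (2.92% of all genes) with a negative sign (1.45% of all genes). For WD_S against HHD, 6 of 8 were negative, where 51% of all genes were, and the median was -0.09. Here 0 of 8 passed the adjusted threshold (0.00734% of all genes did), and ACAT2, HMGCS1 and IDI1, 3 of 8, had an unadjusted p under 0.05 (3.41% of all genes), all negative (1.46% of all genes). Those 2 comparisons share the WD_S pigs. No enzyme had groups without overlap in any pair of groups. Such genes made up 0.0147% of all genes for WD_S against HHD_S, 0.0147% for HHD_S against HHD and 0.0661% for WD_S against HHD. When WD_S was set against the mean of both heart healthy groups, 8 of 8 were negative (52.6% of all genes), 0 of 8 passed the adjusted threshold (0.00734% did), and 3 of 8 had an unadjusted p under 0.05 (3.66% of all genes), all negative (1.5%). The log2 fold changes were -0.54 for HMGCS1 (SE 0.203), -0.53 for ACAT2 (SE 0.214) and -0.43 for IDI1 (SE 0.191). In the test of any difference over the 3 groups, HMGCS1, 1 of 8, had an unadjusted p under 0.05 (0.0443, edgeR), where 2.13% of all genes did. Of 24 exact permutation tests, 8 enzymes in 3 pairs of groups, 4 had an unadjusted p under 0.05: HMGCS1 in both Western comparisons, and ACAT2 and IDI1 against HHD.

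**Figure D2:**
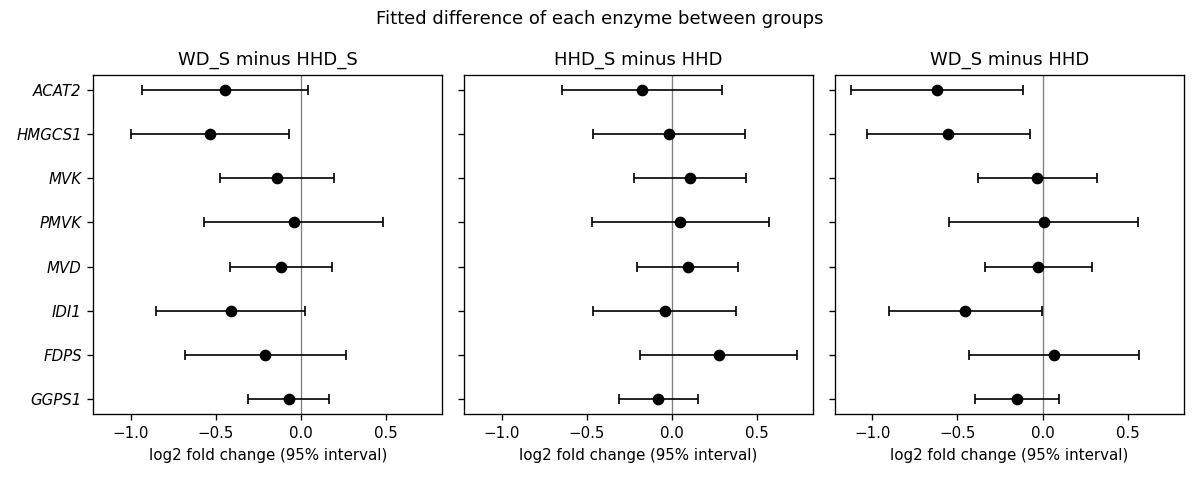
Fitted log2 fold change (x axis) of each enzyme (y axis, in pathway order) in the 3 pairs of groups, with points for the edgeR estimate and lines for its 95% interval. In the Western comparisons ACAT2, HMGCS1 and IDI1 lie farthest to the left (-0.62 to -0.41), and for HHD_S minus HHD every interval spans 0.

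For atorvastatin under the heart healthy pattern, 4 of 8 enzymes were negative and 4 positive, where 47.4% of all genes were negative. The median was 0.016 against 0.0088 over all genes. By edgeR 0 of 8 passed the adjusted threshold (0% of all genes did), and 0 of 8 had an unadjusted p under 0.05, against 1.81% of all genes (0.741% negative). The intervals show what sizes these data leave possible, since a p above the threshold does not show that the drug made no difference. That of HMGCS1 ran from -0.46 to 0.43 on the log2 scale around an estimate of -0.02, and that of IDI1 from -0.46 to 0.38 around -0.04. That of ACAT2 ran from -0.64 to 0.30 around -0.17. MVK had 0.11 (-0.22 to 0.44), MVD 0.09 (-0.20 to 0.39), PMVK 0.05 (-0.47 to 0.57) and GGPS1 -0.08 (-0.31 to 0.15). The spread within HHD_S was large for ACAT2, HMGCS1 and IDI1, with coefficients of variation in CPM of 43.0%, 41.8% and 45.4%. In HHD they were 24.7%, 26.4% and 30.2%. WD_S, which also took the drug, had 17.1%, 24.1% and 15.0%. These differences of spread were not tested. HHD_S 7 was the highest of all 22 libraries for ACAT2, HMGCS1, MVK and IDI1, and HHD_S 3 the lowest for MVK, PMVK and MVD, with HHD_S 4 lowest for ACAT2 and HHD_S 8 lowest for IDI1. Without HHD_S 7 the log2 fold change for HHD_S against HHD was -0.23 for HMGCS1, -0.26 for IDI1 and -0.33 for ACAT2.

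**Figure D3:**
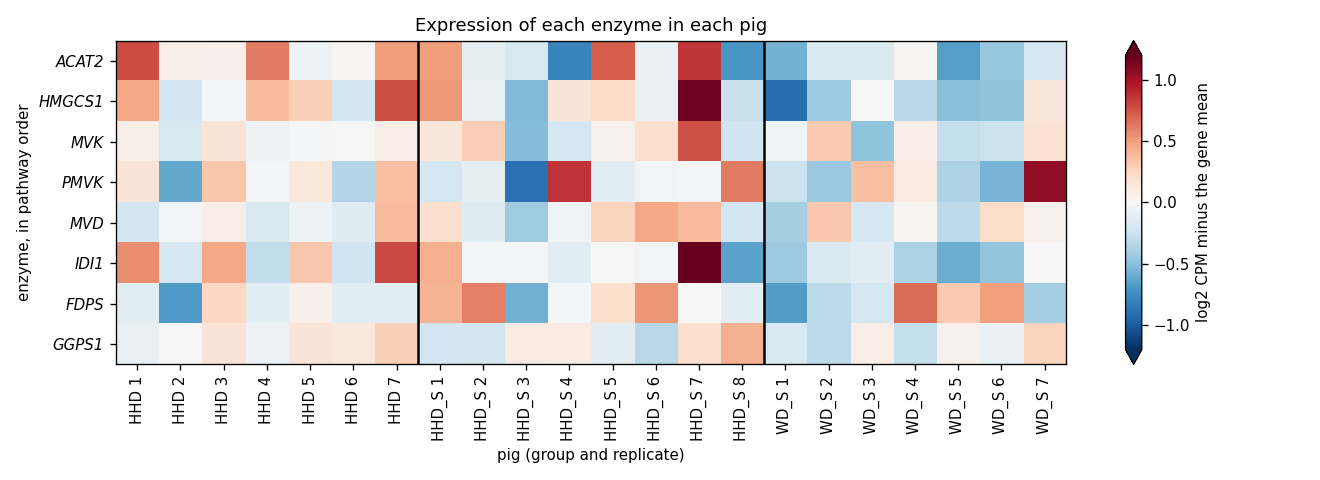
Log2 CPM minus the gene's mean over 22 pigs (colour) for each enzyme (rows, in pathway order) in each pig (columns, by group, separated by black lines). HHD_S 7 is highest for ACAT2, HMGCS1, MVK and IDI1, whereas PMVK, FDPS and GGPS1 follow other pigs, such as WD_S 7 for PMVK (32.2 CPM) and WD_S 4 for FDPS (1.78 CPM).

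Several of the enzymes varied together from pig to pig. After the group means were taken off, 23 of 28 pairs had a positive Pearson r over the 22 pigs, and 5 pairs passed an adjusted p of 0.05 by permutation within groups (3 pairs by Spearman rho). The pair most alike was HMGCS1 and IDI1, with r = 0.78 (permutation p = 0.00028, adjusted p = 0.00784 over 28 pairs) and rho = 0.67 (permutation p = 0.00207, adjusted p = 0.0193). Without HHD_S 3 and HHD_S 7, the libraries farthest from the median of HMGCS1, r was 0.70. Of all genes tested, IDI1 was number 13 in likeness to HMGCS1, and HMGCS1 was number 7 in likeness to IDI1. ACAT2 and HMGCS1 had r = 0.67 (permutation p = 0.00215, adjusted p = 0.0301; rho = 0.67, permutation p = 0.00198, adjusted p = 0.0193; r = 0.59 without HHD_S 5 and 7). MVK and IDI1 had r = 0.63 (permutation p = 0.0043, adjusted p = 0.0401; rho = 0.61, permutation p = 0.00181, adjusted p = 0.0193; r = 0.47 without HHD_S 3 and 7). ACAT2 and IDI1 had r = 0.63 (permutation p = 0.00645, adjusted p = 0.0451; rho = 0.60, permutation p = 0.00784, adjusted p = 0.0549; r = 0.58 without HHD_S 5 and 7). MVK and MVD had r = 0.61 (permutation p = 0.00869, adjusted p = 0.0487; rho = 0.58, permutation p = 0.0129, adjusted p = 0.0723; r = 0.45 without HHD_S 3 and 7). These pairs therefore link the thiolase, the synthase, mevalonate kinase, the decarboxylase and the isomerase. HMGCS1 and MVK rested on the extreme pigs, since their r of 0.53 (permutation p = 0.0273, adjusted p = 0.0956; rho = 0.35, permutation p = 0.124, adjusted p = 0.268) was 0.12 without HHD_S 3 and 7.

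**Figure D4:**
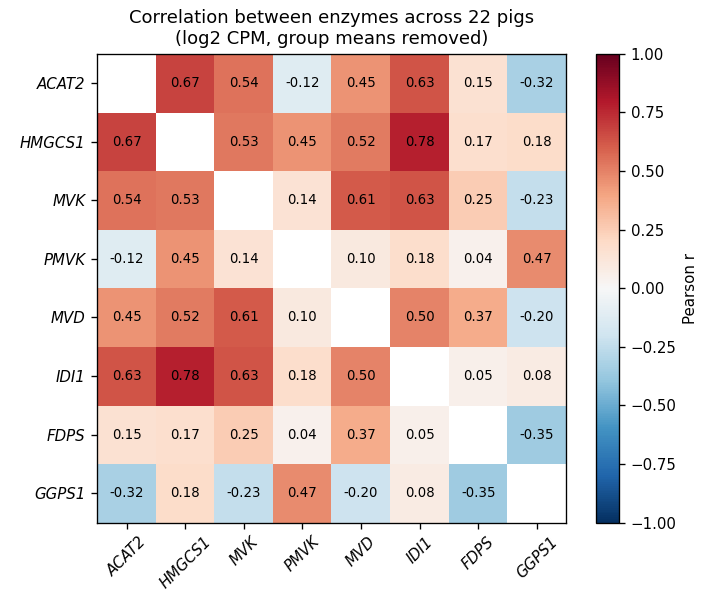
Pearson r (number and colour) between each pair of enzymes over 22 pigs, on log2 CPM with group means removed. ACAT2, HMGCS1, MVK, MVD and IDI1 have r between 0.45 and 0.78 with each other, whereas PMVK, FDPS and GGPS1 range from -0.35 to 0.48 with the other enzymes.

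The prenyltransferases and PMVK had no pair past the threshold. FDPS had r between -0.35 and 0.37 with the others, GGPS1 between -0.35 and 0.48, and PMVK between -0.12 and 0.48, none past the adjusted threshold. PMVK had r = 0.45 with HMGCS1 (permutation p = 0.0505, adjusted p = 0.129), and 0.46 without HHD_S 3 and 7. Their rho was 0.52 (permutation p = 0.0165, adjusted p = 0.0769). GGPS1 varied with its RefSeq neighbour. ARID4B, a chromatin protein whose span starts 295 bases beyond that of GGPS1, had r = 0.78 with it (permutation p = 7e-05, adjusted p = 0.00042 over 6 gene and neighbour pairs; rho = 0.73, permutation p = 0.0009, adjusted p = 0.0054; r = 0.80 without 2 libraries), and was number 234 of all genes in likeness to GGPS1. MMAB, which acts in vitamin B12 metabolism and lies 149 bases from MVK, had r = 0.44 with MVK (permutation p = 0.0598, adjusted p = 0.12; rho = 0.37, permutation p = 0.107, adjusted p = 0.215; r = 0.10 without 2 libraries). For WD_S against HHD_S, MMAB had a log2 fold change of -0.25 (SE 0.124, edgeR unadjusted p = 0.0598). KCNN3, a potassium channel whose span overlaps that of PMVK by 113 bases, ran opposite to it, with r = -0.65 (permutation p = 0.00126, adjusted p = 0.00378; rho = -0.58, permutation p = 0.00848, adjusted p = 0.0254; r = -0.67 without 2 libraries), at only 0.304 to 1.2 CPM.

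PMVK and GGPS1 also varied with the scores of some cell type marker lists. Over 80 relations between an enzyme and a marker list, 6 passed an adjusted p of 0.05, all of them negative and all with PMVK or GGPS1. PMVK had r = -0.77 with the endothelial score, the mean centred log2 CPM of 4 vessel markers (permutation p = 0.0001, adjusted p = 0.004; rho = -0.66, permutation p = 0.00196, adjusted p = 0.0426; r = -0.65 without HHD_S 3 and 4). Its r was -0.70 with smooth muscle (permutation p = 0.00017, adjusted p = 0.0042; rho = -0.66, permutation p = 0.00127, adjusted p = 0.0426; r = -0.70 without HHD 7 and HHD_S 8). It was -0.66 with fibroblasts (permutation p = 0.00074, adjusted p = 0.00987; rho = -0.57, permutation p = 0.00856, adjusted p = 0.0978; r = -0.64 without HHD 7 and HHD_S 8). The endothelial markers summed to 58.3 CPM in HHD_S 4 and 104 in WD_S 7, where PMVK was high, and to 326 in HHD_S 3 and 339 in HHD 2, where PMVK was low. GGPS1 had r = -0.77 with the goblet cell score (permutation p = 6e-05, adjusted p = 0.004; rho = -0.75, permutation p = 0.00022, adjusted p = 0.0176; r = -0.77 without WD_S 7 and HHD 5). Its r was also -0.70 with fibroblasts (permutation p = 0.00021, adjusted p = 0.0042; rho = -0.63, permutation p = 0.00213, adjusted p = 0.0426; r = -0.60 without HHD 7 and HHD_S 8). With smooth muscle it was -0.70 (permutation p = 0.00066, adjusted p = 0.00987; rho = -0.63, permutation p = 0.00427, adjusted p = 0.0683; r = -0.57 without HHD 7 and HHD_S 8). The part of cell makeup in the levels of PMVK and GGPS1 was not tested.

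HMGCS1, ACAT2 and IDI1 had no such relation past the threshold. With the plasma cell and B cell score IDI1 had r = 0.605 (permutation p = 0.0102, adjusted p = 0.102), and 0.45 without WD_S 1 and HHD_S 7. ACAT2 had r = 0.48 with that score (permutation p = 0.0477, adjusted p = 0.212). For ACAT2 and the enterocyte score r was 0.43 (permutation p = 0.116, adjusted p = 0.297) and rho was 0.50 (permutation p = 0.0314, adjusted p = 0.17). With the enterocyte score HMGCS1 had r = 0.46 (permutation p = 0.0665, adjusted p = 0.262; rho = 0.42, permutation p = 0.0715, adjusted p = 0.314; r = 0.24 without HHD_S 3 and 8). With the fibroblast score it had r = -0.53 (permutation p = 0.0153, adjusted p = 0.122; rho = -0.53, permutation p = 0.018, adjusted p = 0.131; r = -0.66 without HHD 7 and HHD_S 8). With smooth muscle it had r = -0.50 (permutation p = 0.0326, adjusted p = 0.186; rho = -0.52, permutation p = 0.0209, adjusted p = 0.14; r = -0.67 without HHD 7 and HHD_S 8). The fibroblast and smooth muscle signs were those of PMVK and GGPS1 with the same lists. For the enterocyte score, PMVK had r = 0.17 (permutation p = 0.468, adjusted p = 0.734). GGPS1 had the other sign there, with r = -0.48 (permutation p = 0.0406, adjusted p = 0.203). Its rho was -0.47 (permutation p = 0.0318, adjusted p = 0.17), and r was -0.37 without HHD_S 3 and 8. With the enterocyte score as a term in the model, the log2 fold changes for WD_S against HHD_S were -0.60 for HMGCS1, -0.52 for ACAT2 and -0.43 for IDI1. Without HHD_S 3 and HHD_S 8, the heart healthy drug libraries with the lowest enterocyte scores, they were -0.69, -0.60 and -0.55. That is a description only, since leaving out libraries that are low for HMGCS1 and ACAT2, and in HHD_S 8 for IDI1, raises the HHD_S mean by itself. The part of cell makeup in these differences was not tested.

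**Figure D5:**
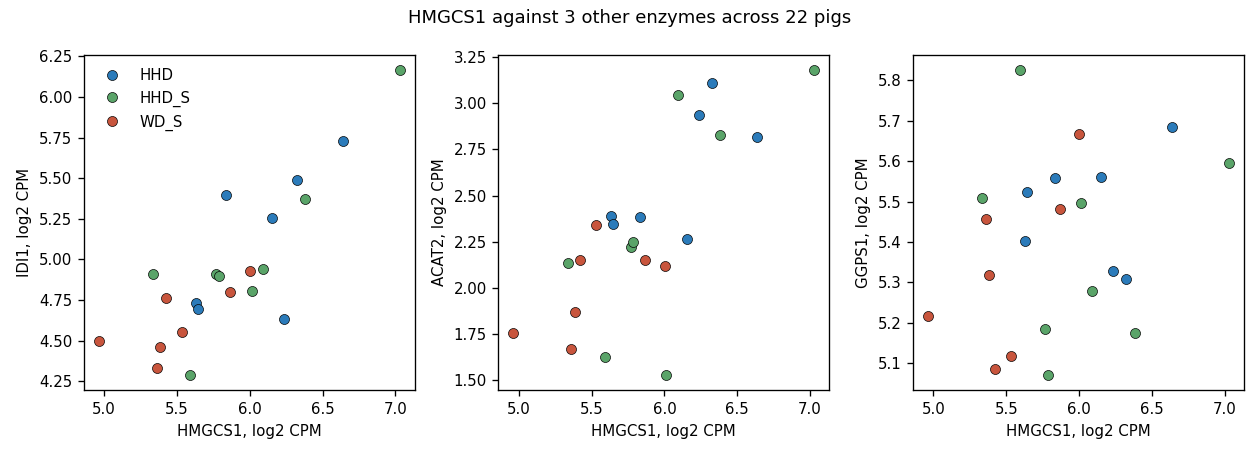
Log2 CPM of HMGCS1 (x axis) against IDI1, ACAT2 and GGPS1 (y axes) in 22 pigs, coloured by group. IDI1 and ACAT2 climb with HMGCS1 within the groups (r = 0.78 and 0.67 with group means removed), and GGPS1 does not (r = 0.18). Most WD_S pigs are low for HMGCS1, but WD_S 3 (58.3 CPM) and WD_S 7 (64.0 CPM) are mid-range, and HHD_S 3 (40.3 CPM) is low as well.

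The rest of the sterol pathway gave the frame for these values. Of 12 enzymes from squalene to cholesterol, 11 were matched and tested, and 10 of 11 had negative log2 fold changes for WD_S against HHD_S, with a median of -0.20, where 52.9% of all genes were negative. SQLE, which oxidises squalene (-1.38, SE 0.315), MSMO1, a sterol C4-methyl oxidase (-0.49, SE 0.169), and EBP, a sterol isomerase (-0.39, SE 0.161), had the smallest p, and 3 of 11 had an unadjusted p under 0.05 (2.92% of all genes), all negative (1.45% of all genes). EBP and MSMO1 were also close to the mevalonate enzymes from pig to pig. With group and pool means removed, EBP had the highest correlation of 11022 named genes with the mean of the 8 enzymes (r = 0.90 over 22 pigs), and MSMO1 was number 5 (r = 0.82). The other genes of the top 10 were WDR83OS (0.88), CENPO (0.84), MAP2K4 (0.83), OGFR (0.79), JPT1 (0.79), AIFM1 (0.78), HIST1H2BD (0.76) and GUK1 (0.76). The middle 90% of all named genes lay between -0.51 and 0.54. These correlations were ranked to pick the genes, so they carry no p.

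Genes around the pathway gave mixed signs. Of 7 SREBP regulators, 5 had negative log2 fold changes for WD_S against HHD_S (52.9% of all genes), with a median of -0.03. SREBF2, which encodes SREBP2, had -0.34 (SE 0.179), SREBF1, its paralogue that drives fatty acid synthesis, 0.89 (SE 0.456), and MBTPS2, a protease that releases both, -0.22 (SE 0.0986). SREBF2 stood at 81.5 ± 11 CPM in WD_S (SD, n = 7), 104 ± 33.6 in HHD_S (SD, n = 8) and 103 ± 20.6 in HHD (SD, n = 7), and SREBF1 at 222 ± 75.0, 122 ± 95.5 and 123 ± 48.3 CPM in the same groups. Neither passed the test (edgeR unadjusted p = 0.0706 and 0.0651).

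Downstream of farnesyl and geranylgeranyl diphosphate, the enzymes that attach them to proteins had a median of -0.06 for WD_S against HHD_S. Of those tested, 7 of 8 were negative (52.9% of all genes) and 0 of 8 had an unadjusted p under 0.05 (2.92% of all genes). RABGGTA, a subunit of the transferase for Rab proteins, had the smallest p (-0.31, SE 0.247). The other isoprenoid branches (ubiquinone, dolichol, menaquinone and transfer RNA modification) had 6 of 7 negative (52.9% of all genes) and a median of -0.05, led by TRIT1 (-0.25, SE 0.142). There 0 of 7 had an unadjusted p under 0.05 (2.92% of all genes). The small GTPases that receive prenyl groups had 5 of 11 negative (52.9% of all genes) and a median of 0.004. Of them 0 of 11 had an unadjusted p under 0.05 (2.92% of all genes), and RAC1 had the smallest p (0.21, SE 0.112). The enzymes of acetyl-CoA supply and ketone bodies had 4 of 8 negative (52.9% of all genes) and a median of 0.026, with 1 of 8 at an unadjusted p under 0.05 (2.92% of all genes). Among them HADHB, a subunit of the mitochondrial trifunctional protein, had the smallest p (-0.27, SE 0.124), and ACAT1, the mitochondrial thiolase, stood at 77.3 ± 11.9 CPM in WD_S (SD, n = 7), 79.6 ± 10.1 in HHD_S (SD, n = 8) and 78.3 ± 12.3 in HHD (SD, n = 7). No gene of any of these lists passed an adjusted p of 0.05 by edgeR in any pair of groups.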

How the data were processed

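Jejunal mucosa RNA from 22 pigs was sequenced as single reads of 150 bases, processed in a CLC workbench and assigned to the annotated pig genome Sscrofa11.1, per the labels' protocols. Mapping settings: not given in the sources used here. Each deposited file lists 1 whole-number count for every gene, the reads placed uniquely in its exons, as the authors named that column. Groups follow each sample's diet label. Separate pigs are the replicates. Of 24358 genes, 17332 were named in the files and 1073 through a name table. Positions are RefSeq gene spans by symbol (Sscrofa11.1), found for 7 of 8 enzymes.

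edgeR 4.0.16 (R 4.3.3) was used on genes kept by filterByExpr (minimum count 10), with TMM scaling and a robust quasi-likelihood fit of all 3 groups plus library pool (18 residual degrees of freedom). P values were adjusted by Benjamini-Hochberg over 13626 genes. On simulated counts for WD_S against HHD_S over 13626 genes, 38.8% of 1.5-fold, 85.1% of 2-fold and 100% of 3-fold changes were called, with 8 unchanged genes called. The 200 changed genes were drawn above a level that FDPS (mean 1.13 CPM) did not reach. No separate share was computed for genes as variable as ACAT2, HMGCS1 and IDI1 (biological coefficients of variation 30.3%, 29.5% and 27.8%, median of all genes 20.7%). The adjusted threshold also depends on how many genes change. Log2 CPM used a prior count of 2. Correlations used 100000 permutations within groups. The enzymes and lists were chosen with earlier results of these data known. Every enzyme is named, with the 3 smallest p of each pathway list at most, and the 10 named genes most like the enzymes. RefSeq neighbours and ACAT1 were added after values were seen. DESeq2 1.42.0 and limma 3.58.1 served as alternatives.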

Additional observations from a re-analysis of the deposited data

Results flagged for a closer look

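IDI1 in HHD_S 7 stood apart from the rest of its group, at 71.7 CPM against 41.3 CPM in the next library, a gap of 0.582 of the group's range where 0.526 is the critical value for 8 samples. It was the 1 flag among 24 sets of values (8 enzymes in 3 groups), and chance flags about 1 set in 20. The same library was also the highest of 22 for HMGCS1 (130.0 CPM), MVK (12.2 CPM) and ACAT2 (8.97 CPM), without passing that limit for them.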

How the results depend on the processing

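No enzyme passed an adjusted p of 0.05 in any of 188 settings over the 5 tests (main ones included), with a smallest adjusted p of 0.41 (limma, HMGCS1). Of 1172 alternative log2 fold changes, 76 had the other sign, 50 of them with 1 library left out, and the cause was not tested. In pool 4 alone these were, for WD_S against HHD_S, PMVK 0.008 and FDPS 0.11, against HHD, MVD 0.126, and against both heart healthy groups, PMVK 0.082 and FDPS 0.253. In pool 3 alone they were HMGCS1 0.141, MVD -0.017 and IDI1 0.055 for HHD_S against HHD, and PMVK -0.094 and FDPS -0.276 for WD_S against HHD. With limma they were HMGCS1 0.045 and IDI1 0.036 for HHD_S against HHD, and MVK 0.023, PMVK -0.163 and MVD 0.033 for WD_S against HHD. Without HHD_S 3 and 8, chosen after seeing the data, they were GGPS1 0.053 for WD_S against HHD_S, HMGCS1 0.132 and IDI1 0.078 for HHD_S against HHD, and PMVK 0.013 against both. PMVK for WD_S against HHD was -0.044 by total counts, -0.048 with a Y-linked term and -0.019 with an enterocyte term, and MVD was 0.001 with only those groups. Against both groups, PMVK was 0.025 and FDPS 0.033 without the pool term, and PMVK was 0.009 with a term for late pig numbers.

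With 1 library left out, values for WD_S against HHD_S ran from -0.257 to 0.115 for PMVK and from -0.132 to 0.018 for GGPS1. For HHD_S against HHD they ran from -0.227 to 0.093 for HMGCS1, -0.025 to 0.186 for MVK, -0.145 to 0.152 for PMVK and -0.258 to 0.051 for IDI1. For WD_S against HHD they ran from -0.115 to 0.062 for MVK, -0.193 to 0.09 for PMVK, -0.127 to 0.047 for MVD and -0.032 to 0.183 for FDPS. Against both they ran from -0.166 to 0.01 for MVK, -0.225 to 0.062 for PMVK and -0.169 to 0.041 for FDPS.

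Over all genes, the calls for WD_S against HHD_S were 0 by edgeR (398 with an unadjusted p under 0.05), 4 by DESeq2 and 1 by limma. For HHD_S against HHD they were 0 by edgeR (247 unadjusted), 1 and 0. For WD_S against HHD they were 1, 2 and 1, and against both 1, 6 and 3. For any difference they were 1, 3 and 1. With a minimum count of 50, FDPS was not measured. Fits on only the groups compared gave no separate value where all 3 groups enter. FDPS and ACAT2 rest on few reads. No paired analysis was possible because each library is a different pig and the labels give no pairing of pigs between groups.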
